A study of Mus musculus with 4 samples.

Results

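The genes of cholesterol and fatty acid synthesis were followed in the mouse mammary carcinoma line 4T1 in libraries labelled control and CD95 knockout. The set is a list of 34 gene symbols, 20 for the sterol branch, 10 for the fatty acid branch and 4 for the regulators that control both branches. A symbol was kept where its value reached at least 1 TPM (the unit of length-scaled expression, reads divided by transcript length and scaled to a fixed total per library) in at least 1 library. This held for 33 of the 34, among 12091 such genes of 24411 listed. The gene left out was Hsd17b7, a sterol ketoreductase, with values between 0.28 and 0.71 TPM. The lowest value of any kept gene was 3.08 TPM, for the sterol carrier gene Stard4 in control 2, so each of the 33 was above the limit in all 4 libraries. The highest was 482 TPM, for Fdps in control 2.

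The series holds 4 poly(A)-selected RNA-seq libraries of 4T1, a line derived from a mouse mammary tumour. Both control libraries (control 1 and control 2) carry the genotype label control. Both CD95ko libraries (CD95ko 1 and CD95ko 2) come from single-cell clones of a line that stably expresses Cas9 from a lentivirus under blasticidin selection, in which exon 9 of the CD95 gene (symbol Fas) was targeted with a pair of guide RNAs. The RNA sources named in the protocol are an untransduced line, the Cas9 line and both clones, and the titles do not say which control is which, so Cas9 and its selection may be carried by only 1 of the controls. Each CD95ko library is 1 clone, and a difference between the groups cannot be told apart from differences between clones. Nothing states that the libraries of a group are separate cultures of the same cells, and p-values measure only the spread between these libraries.

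The targeted transcript did not separate the groups. Fas was at 49.4 and 39.2 TPM in the controls, at 15.8 TPM in CD95ko 1 and at 49.5 TPM in CD95ko 2, and gene-level values do not isolate exon 9, so directions refer to the libraries as labelled. The median TPM of the 11167 genes tested was 16.3 in control 2 and between 21.3 and 22.9 in the other 3 libraries. Epithelial markers (Krt8, Krt18, Krt19, Krt7, Epcam, Cdh1) had a summed level of 4550 TPM in control 1, 4576 TPM in control 2, 8134 TPM in CD95ko 1 and 12436 TPM in CD95ko 2. All 6 were higher in both CD95ko libraries than in both controls, which 29.2% of all tested genes were. Their median log2 fold change was 1.15, against 0.13 over all tested genes, and their lowest limma adjusted p was 0.0594. The part of these markers in the results on lipid genes was not tested. Of 19 leukocyte, endothelial, fibroblast and adipocyte markers, 14 were listed at 0 in every library, including Ptprc, Pecam1, Adipoq and Plin1, and 4 passed 1 TPM in at least 1 library. The leukocyte list summed to 45.8 and 42.1 TPM in the controls and to 40.1 and 151 TPM in the clones, mostly Cd68 in 3 libraries and Csf1r in CD95ko 1, and the fibroblast list to between 0.97 and 4.52 TPM, while all 5 adipocyte and all 3 endothelial markers were at 0. In bulk RNA, fewer cells of a type and less RNA per cell cannot be told apart.

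Cells make cholesterol from acetyl-CoA through mevalonate, farnesyl diphosphate, squalene and lanosterol, and make fatty acids by carboxylating acetyl-CoA to malonyl-CoA, which fatty acid synthase extends. Both pathways are switched on by the SREBP transcription factors, products of Srebf1 and Srebf2, which are made as precursors in the endoplasmic reticulum, escorted by SCAP to the Golgi for cleavage, and held back by INSIG proteins when sterols are plentiful. SREBP proteins act with NF-Y, which binds the CCAAT box, and with Sp1, and many genes of both branches, Insig1 and the Srebf genes among them, are their targets.

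Most of these genes were higher in the CD95ko libraries, but none passed the test across all genes in the fit used here. On the log2(TPM + 1) scale the median log2 fold change (CD95ko minus control) was 0.58 over the 19 tested sterol genes, 0.59 over the 10 fatty acid genes and 1.16 over the 4 regulators, against 0.13 over all 11167 tested genes. Of the 33, 24 had a fold change above 0, which 57.4% of all tested genes had. At a limma adjusted p of 0.05, 0 of the 33 were called, where 0.0537% of tested genes (6 genes) were, 0.0179% higher and 0.0358% lower. At an unadjusted limma p under 0.05 the members numbered 13 higher and 1 lower, 39.4% and 3.03% of the 33, where 9.25% and 5.68% of all tested genes were called in those directions. Both CD95ko values lay above both control values for 19 members and below them for 6, against 29.2% and 18.3% of all tested genes, and the groups overlapped for 8. The members were chosen with earlier results of these data known, so these shares describe the list only.

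The counts at an unadjusted p depend on each library. With 1 library left out, the lone library of its group is assumed to vary like the other group. Members with an unadjusted limma p under 0.05 then numbered 6 without control 1, 3 without control 2, 9 without CD95ko 1 and 5 without CD95ko 2, or 18.2%, 9.09%, 27.3% and 15.2% of the 33. The corresponding shares of all tested genes were 8.33%, 4.2%, 24.3% and 12.2%. Setting each library to a common median left 9 members higher and 2 lower at that level, and quantile normalization 12 and 2. In all these were 33.3% and 42.4% of the members, where 16.5% and 16.7% of all tested genes were called. Over all 11167 genes the median fold change, 0.13 as reported, became -0.07 and 0.002 under these scalings. The share of higher genes among all those at an unadjusted p under 0.05 was 62.0% as reported, 43.7% under median centring and 51.9% under quantile normalization. Relative to the median of all genes, the sterol genes lay at 0.45 as reported and at 0.38 under quantile normalization. The fatty acid genes lay at 0.47 and 0.41. Median centring shifts all genes of a library alike, so it cannot change these relative values. Against all genes, the fatty acid median was 0.17 without CD95ko 2 and 0.68 without CD95ko 1.

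**Figure D1:**
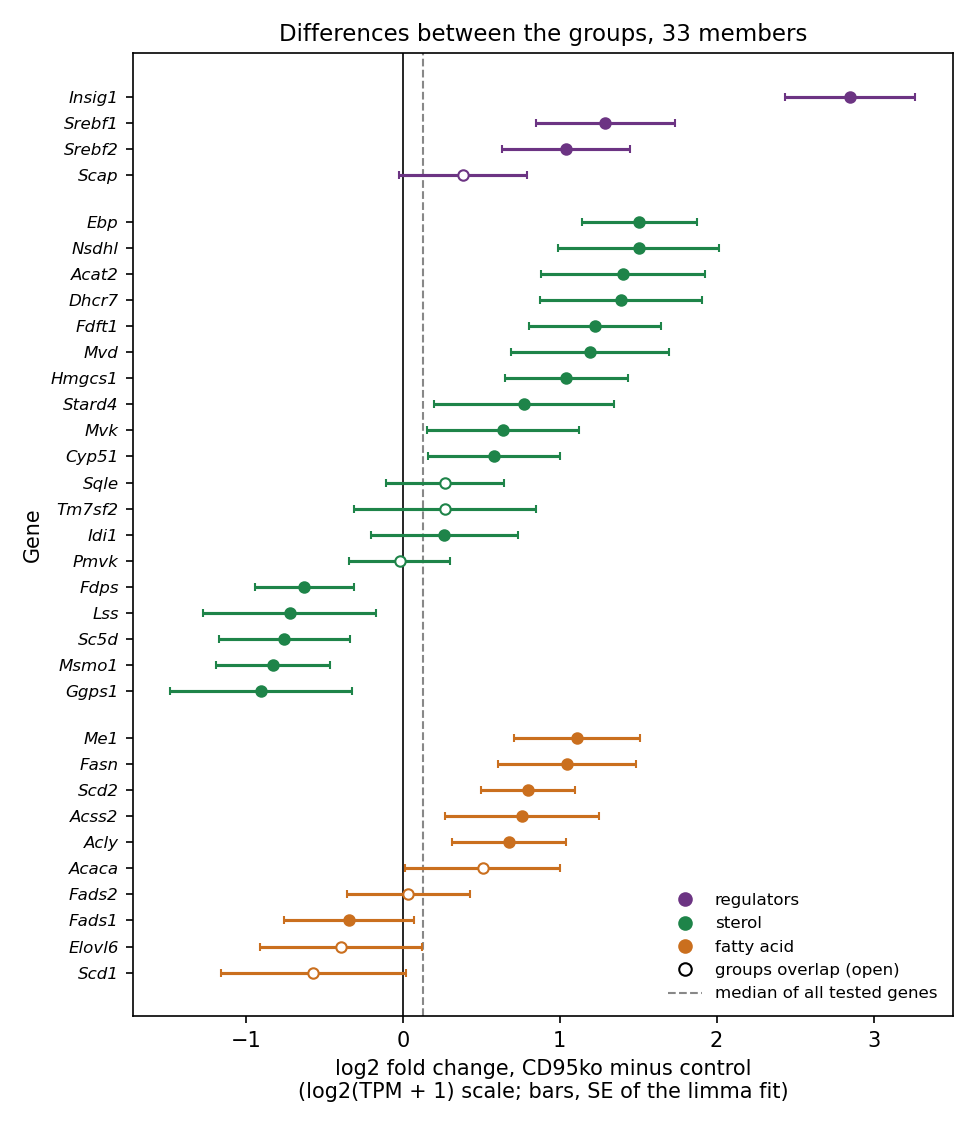
Log2 fold change (CD95ko minus control, x axis, on the log2(TPM + 1) scale) of each of the 33 genes (y axis), grouped as regulators, sterol branch and fatty acid branch; bars are the SE of the limma fit, open circles mark genes whose groups overlap, and the dashed line is the median of all tested genes. Insig1 stands at 2.85, Ebp and Nsdhl near 1.5, and 5 sterol genes from Fdps to Ggps1 lie below -0.6.

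The region before the start of transcription is shown for 6 members, because a CCAAT box was found in members of both directions. RefSeq promoters (GRCm38.p6, 250 bases before to 50 after each start) were found for 26 of the 33 members and not for Fdps, Fdft1, Sqle, Stard4, Scd1, Scd2 and Fads1. The letters CCAAT, searched on both strands, occurred in 14 of 15 sterol genes (93.3%), 4 of 7 fatty acid genes (57.1%) and 3 of 4 regulators (75.0%), a gene with several starts counting where any of its windows held them. Of the 8549 tested genes with a promoter given, 43.5% had them. They were present in 15 of the 16 members whose CD95ko values lay above both controls, in all 4 whose values lay below, and in 2 of 6 whose groups overlapped. The Sp1 letters GGGCGG occurred in 80.8% of the 26 member promoters and 71.9% of those of tested genes, and the E-box letters CACGTG in 15.4% and 12.2%. A sterol response element core, searched on both strands as TCAC, any base, then CCAC, was found in 1 of the 26 (3.85%), that of Hmgcs1, and in 1.37% of tested genes. None of the letters searched for 1 of these motifs contains those of another. A match is a run of letters in this window and not a measured binding site. A sterol response element core spelled in any other way, or lying outside the window, was not counted.

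The sequences read from 5′ to 3′ on the strand of the gene and end at the base before the start site. Capitals mark CCAAT, or ATTGG where it lies on the opposite strand, and in Hmgcs1 also the sterol response element core. The first 4 genes were higher in the CD95ko libraries and the last 2 lower.
Insig1, chr5:28071162-28071411, forward strand: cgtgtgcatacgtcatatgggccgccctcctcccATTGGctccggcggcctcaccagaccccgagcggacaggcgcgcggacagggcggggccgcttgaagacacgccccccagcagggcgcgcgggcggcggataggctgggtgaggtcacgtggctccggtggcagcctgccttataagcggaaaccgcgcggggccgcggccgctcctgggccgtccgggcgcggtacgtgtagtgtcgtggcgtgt
Hmgcs1, chr13:119690101-119690350, forward strand: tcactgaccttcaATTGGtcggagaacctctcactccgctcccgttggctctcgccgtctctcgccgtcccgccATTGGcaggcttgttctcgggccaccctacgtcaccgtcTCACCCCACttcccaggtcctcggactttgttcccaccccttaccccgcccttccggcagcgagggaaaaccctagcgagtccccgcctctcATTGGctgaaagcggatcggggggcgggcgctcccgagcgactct
Nsdhl, chrX:72918271-72918520, forward strand: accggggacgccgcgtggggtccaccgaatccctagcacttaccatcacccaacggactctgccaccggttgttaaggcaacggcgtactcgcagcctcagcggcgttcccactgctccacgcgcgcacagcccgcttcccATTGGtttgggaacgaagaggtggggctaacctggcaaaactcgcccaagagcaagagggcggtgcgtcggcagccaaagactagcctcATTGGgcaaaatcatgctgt
Ebp, chrX:8193513-8193762, reverse strand: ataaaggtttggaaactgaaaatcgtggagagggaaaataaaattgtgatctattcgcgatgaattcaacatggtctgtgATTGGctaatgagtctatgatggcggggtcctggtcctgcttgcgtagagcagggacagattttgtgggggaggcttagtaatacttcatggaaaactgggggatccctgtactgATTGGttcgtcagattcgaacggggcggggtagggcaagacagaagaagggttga
Msmo1, chr8:64733579-64733828, reverse strand: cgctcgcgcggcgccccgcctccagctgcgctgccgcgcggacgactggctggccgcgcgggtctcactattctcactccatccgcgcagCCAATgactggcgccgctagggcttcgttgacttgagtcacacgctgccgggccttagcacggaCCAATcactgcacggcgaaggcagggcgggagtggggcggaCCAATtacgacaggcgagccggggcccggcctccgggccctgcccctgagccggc
Sc5d, chr9:42264301-42264550, reverse strand: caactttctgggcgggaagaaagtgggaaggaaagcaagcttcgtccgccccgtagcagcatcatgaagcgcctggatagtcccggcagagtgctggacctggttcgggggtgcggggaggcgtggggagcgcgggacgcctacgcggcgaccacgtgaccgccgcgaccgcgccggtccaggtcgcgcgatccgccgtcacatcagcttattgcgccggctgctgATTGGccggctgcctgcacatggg

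Read in these sequences, Insig1 has a single CCAAT box, at positions -216 to -212 from the start, and CACGTG, not capitalised, at -101 to -96. Ebp has CCAAT boxes at -170 to -166 and at -55 to -51, and the core in Hmgcs1 spans -137 to -129. The promoter window of Msmo1, whose values were lower in the CD95ko libraries, has 3 CCAAT boxes.

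Among the regulators, Insig1, which encodes an endoplasmic reticulum protein that retains SCAP and is itself an SREBP target, stood apart. It was at 8.65 and 7.49 TPM in the controls, 59.6 TPM in CD95ko 1 and 69.3 TPM in CD95ko 2. Both clones were thus several times above both controls and close to each other. The control mean was 8.07 ± 0.82 TPM and the CD95ko mean 64.5 ± 6.81 TPM (SD, n = 2 each), a ratio of 7.99, and the log2 fold change was 2.85 ± 0.42 SE. The limma adjusted p was 0.0594, and 13 of the 11167 tested genes had a smaller p and 44 a larger log2 fold change. It passed the threshold when 1 library at 1 TPM sufficed for a gene to be tested (limma adjusted p = 0.0402), the limit by which the members were chosen, and with robust eBayes (0.0258). It did not pass with a pseudocount of 0.1 (0.161), without the filter (0.1495), under quantile normalization (0.131) or median centring (0.1305), without the trend (0.125) or with a replicate block (0.112), all limma adjusted p-values. Leaving out 1 library kept the log2 fold change of Insig1 between 2.74 and 2.96. In such fits the lone library is assumed to vary like the other group, so their p-values are not given for this gene.

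Srebf1, which encodes the SREBP isoforms tied mainly to fatty acid genes, was at 21.1 and 12.0 TPM in the controls and at 43.2 and 37.9 TPM in CD95ko 1 and 2 (log2 fold change 1.29 ± 0.44 SE, limma adjusted p = 0.239). Srebf2, which encodes the isoform tied mainly to sterol genes, was at 40.4 and 27.9 TPM in the controls and at 54.5 and 90.4 TPM in the clones (1.04 ± 0.41 SE, limma adjusted p = 0.281). The groups did not overlap for either gene, and control 2 was the lowest library for both. Scap, the escort protein, was at 35.4 and 27.7 TPM in the controls and at 50.7 and 33.2 TPM in the clones, so CD95ko 2 lay between the controls (log2 fold change 0.38 ± 0.41 SE, limma adjusted p = 0.695). Gene-level values do not separate the Srebf1 transcripts that start at different exons.

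**Figure D2:**
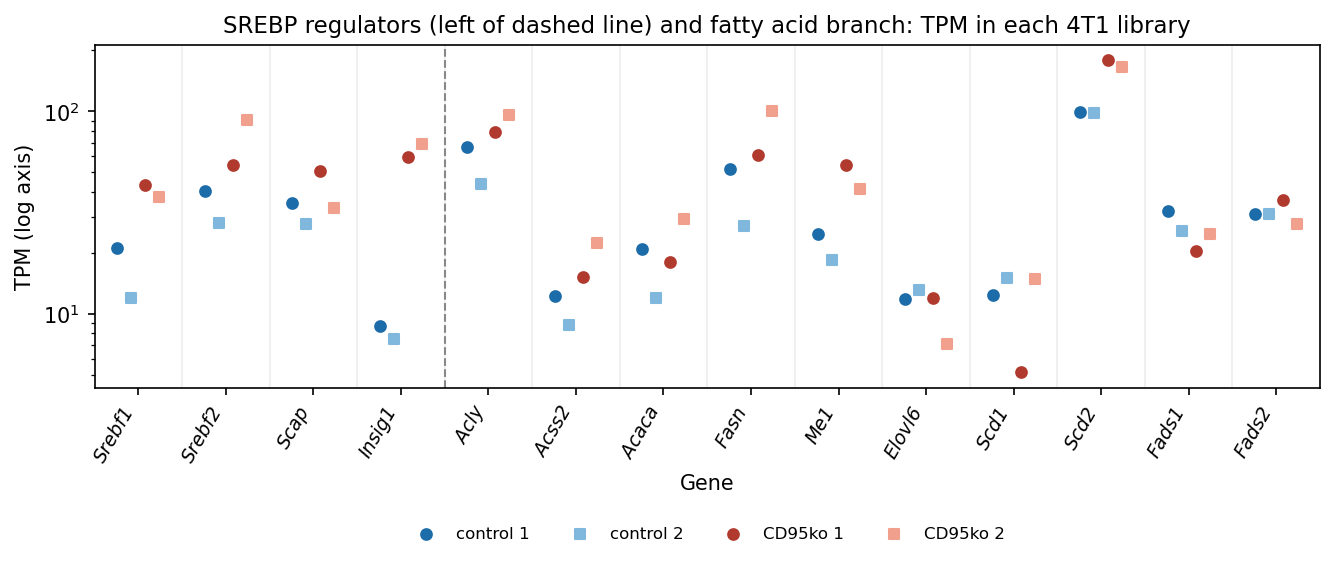
TPM (log axis) of the 4 regulators, left of the dashed line, and the 10 fatty acid genes in each library; circles are replicate 1, squares replicate 2, blue controls and red CD95ko. Insig1 lies at 7.49 and 8.65 TPM in the controls and at 59.6 and 69.3 TPM in the CD95ko libraries, while Scd1 at 5.14 TPM is low in CD95ko 1 alone.

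The first steps of sterol synthesis, from acetyl-CoA to isopentenyl and dimethylallyl diphosphate, were higher or unseparated in the CD95ko libraries. Hmgcs1, the HMG-CoA synthase of the cytosol, was at 21.6 and 18.9 TPM in the controls and at 40.7 and 44.8 TPM in CD95ko 1 and 2. Its values were close within each group, and the log2 fold change was 1.04 ± 0.39 SE (limma adjusted p = 0.272). Mvd, mevalonate diphosphate decarboxylase, was at 15.5 and 7.28 TPM in the controls and at 24.3 and 27.3 TPM in the clones (1.19 ± 0.50 SE, limma adjusted p = 0.317). On the log2(TPM + 1) scale the controls differed by -0.997, close to the difference between the groups.

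Mvk, mevalonate kinase, was at 17.7 and 15.3 TPM in the controls, 37.4 TPM in CD95ko 1 and 18.3 TPM in CD95ko 2, so CD95ko 1 stood out and CD95ko 2 was just above the controls. Pmvk, phosphomevalonate kinase, was between 81.0 and 90.8 TPM in all 4 libraries, and Idi1, the isopentenyl diphosphate isomerase, between 11.7 and 15.0 TPM. For both genes the difference between groups was smaller than its SE (log2 fold change -0.020 ± 0.32 SE for Pmvk and 0.26 ± 0.47 SE for Idi1). Acat2, the cytosolic acetoacetyl-CoA thiolase, was at 12.2 and 12.8 TPM in the controls, 21.7 TPM in CD95ko 1 and 54.9 TPM in CD95ko 2 (1.40 ± 0.52 SE, limma adjusted p = 0.268). Without CD95ko 1 Acat2 had a log2 fold change of 2.05, and without CD95ko 2 of 0.75. Its value is uncertain, since 45.5% of the 25-base stretches of its GENCODE M21 transcripts also occur in its paralogue Acat3. Acat3 was at 23.2 and 24.5 TPM in the controls and at 8.72 and 20.5 TPM in the clones. Summed, the pair was at 35.3 and 37.2 TPM in the controls, 30.4 TPM in CD95ko 1 and 75.3 TPM in CD95ko 2, so the sum was higher in CD95ko 2 only.

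At the branch point, Fdps and Ggps1, which build longer isoprenoids, were lower in the CD95ko libraries. Fdps, farnesyl diphosphate synthase and the most abundant of the 33 transcripts in every library, was at 316 and 482 TPM in the controls and at 264 and 241 TPM in CD95ko 1 and 2 (log2 fold change -0.63 ± 0.31 SE, limma adjusted p = 0.385). Ggps1, which makes geranylgeranyl diphosphate, was at 14.9 and 13.5 TPM in the controls, 11.5 TPM in CD95ko 1 and 4.25 TPM in CD95ko 2 (-0.90 ± 0.58 SE, limma adjusted p = 0.498), so most of its difference came from CD95ko 2. Of the 25-base stretches of Fdps, 28.4% occur in transcripts of other genes, mainly a predicted gene that is not among the symbols listed.

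The committed steps towards sterols followed different courses. Fdft1, squalene synthase, was at 23.7 and 20.5 TPM in the controls and at 40.3 and 68.8 TPM in CD95ko 1 and 2 (log2 fold change 1.22 ± 0.42 SE, limma adjusted p = 0.239). Both clones were above both controls, CD95ko 2 further than CD95ko 1. Sqle, squalene epoxidase, was at 56.5, 37.5, 56.8 and 54.5 TPM in control 1, control 2, CD95ko 1 and CD95ko 2, so control 2 alone was low (0.27 ± 0.37 SE, limma adjusted p = 0.779).

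From lanosterol to cholesterol the enzymes split. Ebp, the sterol isomerase also called emopamil binding protein, was at 22.8 and 22.7 TPM in the controls and at 68.0 and 65.2 TPM in CD95ko 1 and 2. Its 2 values agreed closely in each group, and its log2 fold change was 1.51 ± 0.37 SE (limma adjusted p = 0.147). Nsdhl, which takes part in removal of the methyl groups at carbon C4 of the sterol ring, was at 4.95 and 7.84 TPM in the controls and at 16.7 and 22.8 TPM in the clones (1.503 ± 0.51 SE, limma adjusted p = 0.239). Dhcr7, which catalyses a last reduction on the way to cholesterol, was at 8.10 and 4.68 TPM in the controls and at 16.9 and 18.9 TPM in the clones (1.39 ± 0.52 SE, limma adjusted p = 0.267). With Insig1, Ebp and Nsdhl were the 3 members over 2-fold higher in TPM + 1 in all 4 CD95ko-control pairs, which 3.53% of all tested genes were, and 0 members were over 2-fold lower in all pairs, against 1.96%. On the same criterion with 2 pairs, the members past 2-fold numbered 10 without control 1, 3 without control 2, 9 without CD95ko 1 and 6 without CD95ko 2, where 16.4%, 8.95%, 21.5% and 10.7% of all tested genes were. Under quantile normalization and under median centring it was 2 members, where 5.69% and 5.35% of all tested genes were past 2-fold in either direction.

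The lower genes of the same stretch were Msmo1, Sc5d and Lss. Msmo1, the methyl sterol oxidase that acts just before Nsdhl, was at 78.1 and 94.6 TPM in the controls and at 58.4 and 39.5 TPM in CD95ko 1 and 2 (log2 fold change -0.83 ± 0.36 SE, limma adjusted p = 0.333). No other lower member had an unadjusted limma p under 0.05. Sc5d, a sterol desaturase acting between Ebp and Dhcr7, was at 37.9 and 27.3 TPM in the controls and at 17.9 and 19.5 TPM in the clones (-0.75 ± 0.42 SE, limma adjusted p = 0.433). Lss, lanosterol synthase, was at 7.18 and 8.07 TPM in the controls and at 4.38 and 4.07 TPM in the clones (-0.72 ± 0.55 SE, limma adjusted p = 0.574). For all 3 genes both clones lay below both controls.

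Cyp51, the lanosterol demethylase, was at 20.8 and 16.6 TPM in the controls and at 26.9 and 29.9 TPM in the clones (log2 fold change 0.58 ± 0.42 SE, limma adjusted p = 0.548). Tm7sf2, a sterol reductase, was at 9.41 and 12.2 TPM in the controls, 7.93 TPM in CD95ko 1 and 21.3 TPM in CD95ko 2, so the clones lay on opposite sides of the controls. Its value is uncertain, since 14.59% of its 25-base stretches also occur in transcripts of other genes, mainly Vps51. The same holds for Idi1 (19.3%), Fdft1 (16.29%) and Ggps1 (13.57%), whose stretches occur mainly in predicted genes that are not among the symbols listed. Stard4, which carries cholesterol between membranes, was at 5.62 and 3.08 TPM in the controls and at 7.96 and 7.77 TPM in the clones (0.77 ± 0.57 SE, limma adjusted p = 0.562). The summed level of the 20 sterol genes was 773 TPM in control 1, 903 TPM in control 2, 818 TPM in CD95ko 1 and 849 TPM in CD95ko 2, and Fdps was the largest part of it. The sums were also taken without Fdps, which was itself lower in both clones. They were then 457 TPM in control 1, 421 TPM in control 2, 554 TPM in CD95ko 1 and 607 TPM in CD95ko 2. Only in the sums without Fdps did both clones lie above both controls.

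**Figure D3:**
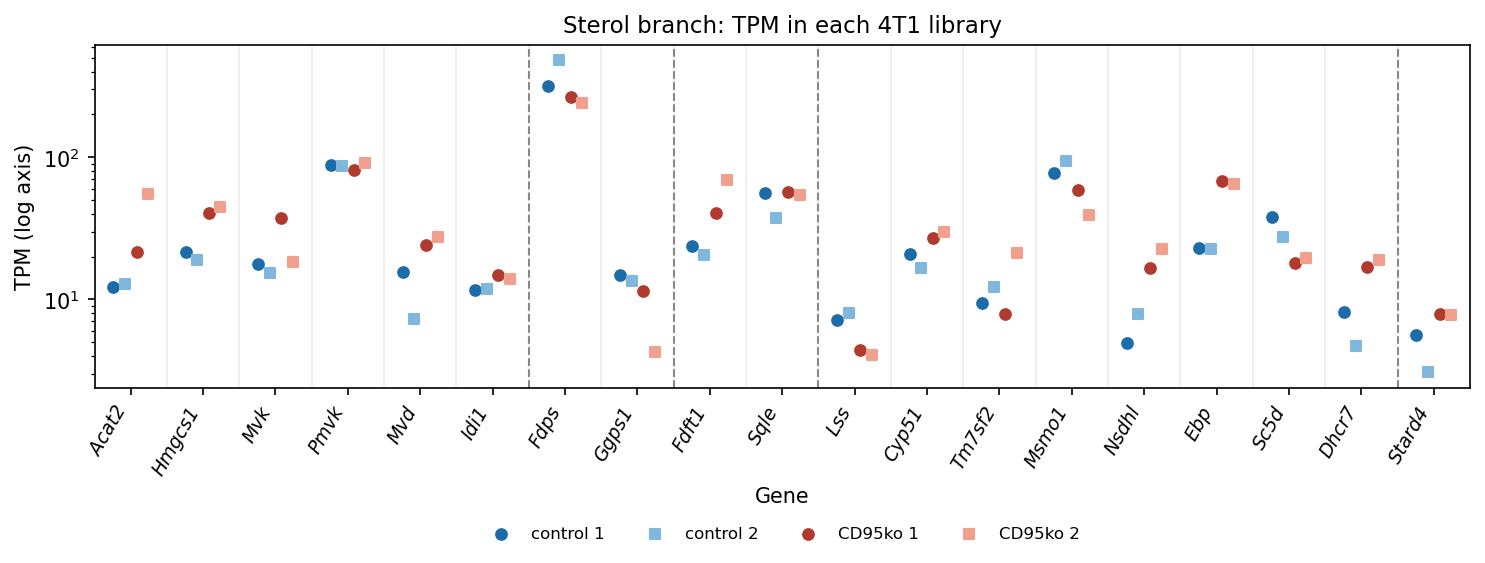
TPM (log axis) of the 19 sterol branch genes in each library, in pathway order with dashed lines after the steps to isoprene units, the longer isoprenoids, the steps to squalene epoxide and the steps to cholesterol, and with the carrier Stard4 last; circles are replicate 1, squares replicate 2. Ebp, Nsdhl and Dhcr7 are higher in both CD95ko libraries, and Fdps, Ggps1, Lss, Msmo1 and Sc5d are lower in both.

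In the fatty acid branch, the enzymes from citrate to palmitate had log2 fold changes between 0.51 and 1.05, and the groups were separated for all of them but Acaca. Fasn, fatty acid synthase, was at 51.8 and 27.0 TPM in the controls and at 61.0 and 101 TPM in CD95ko 1 and 2 (log2 fold change 1.05 ± 0.44 SE, limma adjusted p = 0.315). The ratio of the means was 2.06, while control 1 and CD95ko 1 differed little. Acaca, the acetyl-CoA carboxylase that commits carbon to the pathway, was at 21.0 and 11.9 TPM in the controls and at 17.96 and 29.4 TPM in the clones, and the groups overlapped (0.51 ± 0.49 SE, limma adjusted p = 0.662).

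Acly, which cleaves citrate to cytosolic acetyl-CoA, was at 66.7 and 43.9 TPM in the controls and at 79.2 and 96.3 TPM in the clones (0.68 ± 0.36 SE, limma adjusted p = 0.418). Acss2, which makes acetyl-CoA from acetate, was at 12.3 and 8.83 TPM in the controls and at 15.1 and 22.3 TPM in the clones (0.76 ± 0.49 SE, limma adjusted p = 0.498). For Fasn, Acaca, Acly and Acss2 alike, control 2 was the lowest library and CD95ko 2 the highest. Me1, the cytosolic malic enzyme that supplies NADPH, was at 24.9 and 18.5 TPM in the controls and at 54.2 and 41.5 TPM in the clones (1.11 ± 0.40 SE, limma adjusted p = 0.261). Of the 25-base stretches of Me1, 31.3% occur in Gm7049, and of those of Acaca 32.6% occur in Gm5182, neither of which is among the symbols listed.

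The desaturases and the elongase differed in direction. Scd2, a stearoyl-CoA desaturase, was at 99.8 and 98.1 TPM in the controls and at 179 and 166 TPM in CD95ko 1 and 2, with little spread in either group (log2 fold change 0.80 ± 0.30 SE, limma adjusted p = 0.273). Its paralogue Scd1 was at 12.4 and 15.0 TPM in the controls, 5.14 TPM in CD95ko 1 and 14.8 TPM in CD95ko 2, so CD95ko 1 alone was low (-0.57 ± 0.59 SE, limma adjusted p = 0.684). Scd2 was the more abundant in every library on this length-scaled unit, by 8.06 and 6.55 times in the controls and by 34.9 and 11.3 times in the clones. Of the 25-base stretches of Scd1, 9.93% occur in transcripts of other genes, chiefly Scd3, which was listed at 0 in every library.

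Elovl6, which lengthens palmitate, was at 11.8 and 13.1 TPM in the controls and at 11.9 and 7.05 TPM in the clones (-0.40 ± 0.52 SE). Fads1 and Fads2 introduce double bonds into polyunsaturated fatty acids. Fads1 was at 32.3 and 25.6 TPM in the controls and at 20.5 and 24.7 TPM in the clones (-0.34 ± 0.41 SE). Both clones thus lay below both controls for Fads1. Fads2 was between 27.8 and 36.6 TPM (0.035 ± 0.39 SE), its groups overlapped, and its direction turned to -0.11 under quantile normalization. For none of these 3 was the difference between groups larger than its SE. The summed level of the 10 fatty acid genes was 364 TPM in control 1, 293 TPM in control 2, 481 TPM in CD95ko 1 and 531 TPM in CD95ko 2. The median log2 fold change of the branch, 0.59, was 0.25 without control 2, 0.36 without CD95ko 2 and 0.39 under median centring, and that of the sterol branch, 0.58, was 0.38 under median centring and under quantile normalization.

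Within each group the 33 genes differed less, by their medians, than tested genes as a whole. Between the controls, 0 of the 33 were over 2-fold apart in TPM + 1, where 1.84% of all tested genes were over 2-fold higher in control 2 and 12.6% lower. The nearest was Mvd, whose controls differed by -0.997 in log2(TPM + 1), while on plain TPM control 2 was 0.469 times control 1. Between the clones, Acat2, Tm7sf2 and Scd1 were over 2-fold higher in CD95ko 2 and Ggps1 over 2-fold lower, where 9.90% and 13.4% of all tested genes were. Over the 33 genes the controls lay a median of 0.32 log2(TPM + 1) units apart and the clones 0.28, and over all tested genes 0.45 and 0.52. Control 2 was lower than control 1 for 23 of the 33, with a median of -0.19, and over all tested genes that median was -0.36.

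The other genes of these pathways were read in the same fit, and 0 of them passed the limma threshold. Their lists were chosen with earlier results of these data known, so the shares given for them describe the lists only. Of 20 tested further genes of sterol synthesis and SREBP control, 9 (45.0%) were higher without overlap and 2 (10.0%) lower, where 29.2% and 18.3% of all tested genes were. None of the 20 had an unadjusted limma p under 0.05, which 14.9% of all tested genes had. In the isoprenoid list, 4 of 10 (40%) were higher and 3 (30%) lower without overlap, against 29.2% and 18.3% of all tested genes. Pdss1, a subunit of the enzyme that builds the coenzyme Q side chain, was at 16.4 and 15.0 TPM in the controls, 5.29 TPM in CD95ko 1 and listed at 0 in CD95ko 2. The other subunit, Pdss2, was at 6.36 and 6.10 TPM in the controls and at 8.41 and 17.6 TPM in the clones, so the subunits differed in direction, and Pdss2 was named after its values were seen.

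Of 7 genes for NADPH supply, which both branches consume, 3 were higher in the CD95ko libraries without overlap (42.9%, against 29.2% of all tested genes). Idh1, the cytosolic isocitrate dehydrogenase, was at 25.8 and 21.8 TPM in the controls and at 97.6 and 118 TPM in CD95ko 1 and 2 (log2 fold change 2.13 ± 0.36 SE, limma adjusted p = 0.0676). G6pdx, which opens the pentose phosphate pathway, was at 38.3 and 29.8 TPM in the controls and at 98.9 and 117 TPM in the clones (1.64 ± 0.35 SE, limma adjusted p = 0.136). Pgd, which follows it in the pathway, was at 48.3 and 52.9 TPM in the controls and at 121 and 109 TPM in the clones (1.17 ± 0.33 SE, limma adjusted p = 0.174). All 3 were over 2-fold higher in TPM + 1 in each CD95ko-control pair, against 3.53% of all tested genes. The groups overlapped for the other 4 genes of the list, Idh2, Me2, Me3 and the cytosolic Mthfd1, with log2 fold changes between -1.09 and 0.48.

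Genes of fatty acid breakdown were higher as well in the fit used here, the only one in which the lists outside the set were read. All 13 tested genes of the oxidation list had a log2 fold change above 0, with median 0.80, where 57.4% of all tested genes were above 0. In 9 of them (69.2%) the clones were higher without overlap and in 0 lower, against 29.2% and 18.3% of all tested genes. At an unadjusted limma p under 0.05, 7 of the 13 (53.8%) were higher, against 9.25%. Control 2 was lower than control 1 for 11 of the 13, with median difference -0.35, against -0.36 over all tested genes. For 3 of the 13 control 2 was over 2-fold lower, where 12.6% of all tested genes were. Acadvl, the very long-chain acyl-CoA dehydrogenase of mitochondria, was at 87.6 and 42.2 TPM in the controls and at 174 and 176 TPM in the clones (1.51 ± 0.40 SE, limma adjusted p = 0.161). Hadh, a hydroxyacyl-CoA dehydrogenase, was at 56.9 and 54.8 TPM in the controls and at 119 and 131 TPM in the clones (1.15 ± 0.32 SE, limma adjusted p = 0.176). Acads and Cpt1a, the short-chain dehydrogenase and the carnitine palmitoyltransferase that admits fatty acids to mitochondria, had log2 fold changes of 1.47 ± 0.50 SE and 1.27 ± 0.47 SE.

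In the list of fatty acid activation and glycerolipid synthesis, 8 of 13 (61.5%) were higher and 2 (15.4%) lower without overlap, against 29.2% and 18.3% of all tested genes. Acsl4, which activates polyunsaturated fatty acids, was at 34.3 and 23.7 TPM in the controls and at 68.4 and 83.9 TPM in the clones (log2 fold change 1.38 ± 0.38 SE, limma adjusted p = 0.171). Plin3, a coat protein of lipid droplets, was at 73.0 and 49.7 TPM in the controls and at 105 and 153 TPM in the clones. Lpin1, a phosphatidate phosphatase, was at 1.49 and 0.70 TPM in the controls and at 5.36 and 5.31 TPM in the clones. Dgat1, which makes triglyceride, was at 12.0 and 9.32 TPM in the controls, 14.1 TPM in CD95ko 1 and 66.7 TPM in CD95ko 2, so CD95ko 2 alone was far above the rest.

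Among 15 tested further genes of fatty acid synthesis and elongation, 7 (46.7%) were higher and 2 (13.3%) lower without overlap, against 29.2% and 18.3% of all tested genes. At an unadjusted limma p under 0.05, 0 were higher and 1 (6.67%) lower, against 9.25% and 5.68% of all tested genes. Acacb, the carboxylase of the mitochondrial surface, was at 2.46 and 1.35 TPM in the controls and at 4.87 and 4.91 TPM in the clones. Fads3, a paralogue of Fads1 and Fads2, was at 93.7 and 88.4 TPM in the controls, 58.4 TPM in CD95ko 1 and 24.2 TPM in CD95ko 2 (log2 fold change -1.25 ± 0.45 SE, limma adjusted p = 0.255). Of 9 tested genes of sterol transport, storage and efflux, 4 (44.4%) were higher and 1 (11.1%) lower without overlap, against the same 29.2% and 18.3%. Stard3, a late endosomal sterol carrier, was at 31.2 and 10.97 TPM in the controls and at 36.6 and 84.6 TPM in the clones.

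**Figure D4:**
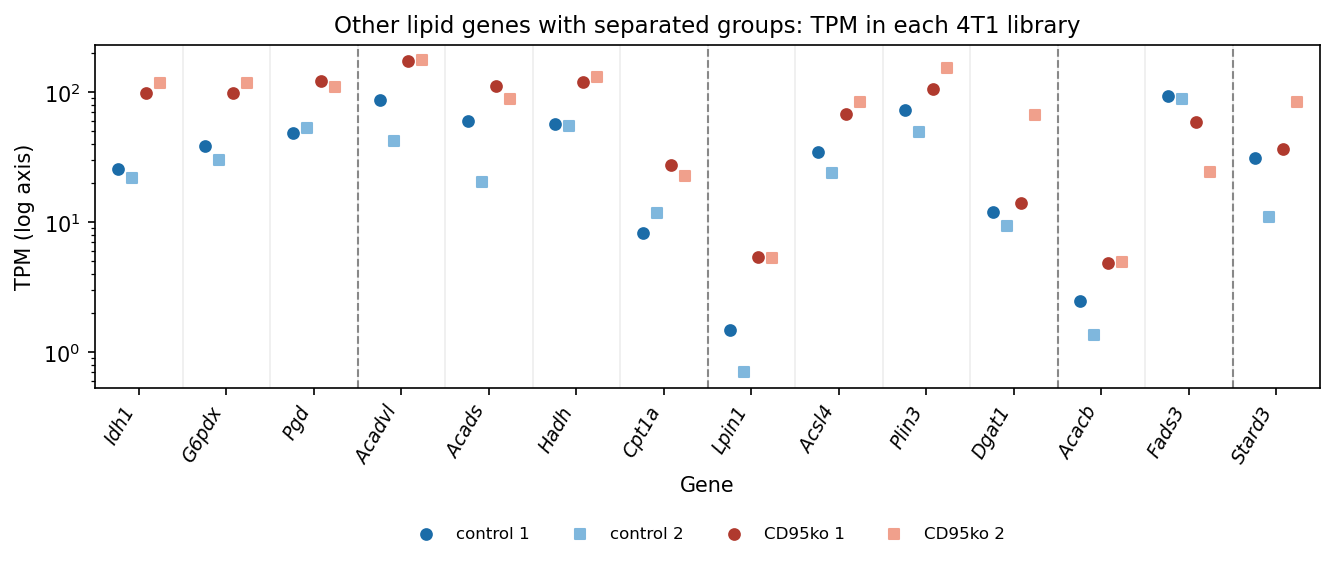
TPM (log axis) in each library of genes outside the set whose groups did not overlap and whose log2 fold change was at least 1 in size, from left to right NADPH supply, fatty acid oxidation, activation and glycerolipids, fatty acid synthesis and desaturation, and sterol transport; Pdss1 is not drawn because 1 value is listed at 0. Idh1, G6pdx and Pgd are higher in both CD95ko libraries, while Dgat1 is far higher in CD95ko 2 alone and Fads3 is lower in both.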

How the data were processed

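The 4 deposited tables give TPM per gene symbol, and the authors computed these TPM values before deposit. The submitters' processing notes name STAR 2.6.0, RSEM 1.3.0 and mm10, with no role or order; annotation and strand setting are not given in the sources used here. TPM keeps no read number, so depth is unknown and no counting interval could be given. Groups came from the titles. A gene was tested where its value was 1 TPM or more in 2 or more libraries (11167 genes), on log2(TPM + 1), a scale that understates the change of low genes, with limma 3.58.1 in R 4.3.3 (eBayes with trend, two-sided, Benjamini-Hochberg over all tested genes, threshold 0.05). With 2 libraries against 2, single-gene permutation cannot reach that threshold. The procedure was run on simulated normal values drawn with the variances of the fit. This does not test whether these libraries meet the assumptions of the fit. The members and lists were chosen with earlier results of these data known. Values in every library were printed for members with separated groups and a log2 fold change of at least 0.8 in size or an unadjusted p under 0.05, regulators, rate-setting enzymes and members over 2-fold apart within a group, and for others where named. From the other lists, genes with separated groups and a log2 fold change of at least 1 in size were named. Shared stretches came from GENCODE M21 (GRCm38), promoters from RefSeq GRCm38.p6. The alternatives were another pseudocount, other filters, quantile normalization, median centring, eBayes without trend or robust, the replicate number as a block, and leaving out each library.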

Additional observations from a re-analysis of the deposited data

How the results depend on the processing

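The number of genes past an adjusted limma p of 0.05 was 6 as reported, 0 with a pseudocount of 0.1, 0 without the filter, 0 under quantile normalization, 0 under median centring, 0 without the trend, 38 when 1 library at 1 TPM sufficed, 52 with robust eBayes, and 0 to 1034 when a library was left out; the cause was not tested. Genes with an unadjusted p under 0.05 numbered 1553, 1636, 1862, 1848 and 1531 in the 5 settings with 0. Members past the threshold were 0 as reported (14 at an unadjusted p under 0.05). With every library kept, 1 member (Insig1) passed with the filter on 1 library and with robust eBayes, where 38 and 52 genes did. Members past the threshold are not counted here for fits with a library left out. The same-numbered libraries deviated from their group means with a correlation of -0.081 and share only a number; fitted with a replicate block, 2 genes and 0 members passed. The median log2 fold change of the sterol branch was 0.43 without the filter, where Hsd17b7 enters, 0.38 under quantile normalization, 0.38 under median centring, and 0.43 to 0.74 with a library left out. That of the fatty acid branch was 0.39 under median centring and 0.25 to 0.85 with a library left out, and that of the regulators 0.85 to 1.48. Members over 2-fold apart in all pairs numbered 3 to 10 with a library left out, which leaves fewer pairs. Directions turned for Fads2 (-0.11 under quantile normalization, -0.17 under median centring, and -0.16 to 0.23 with a library left out) and, with a library left out, for Sqle (-0.021 to 0.56), Pmvk (-0.10 to 0.061), Scd1 (-1.25 to 0.11) and Tm7sf2 (-0.39 to 0.93), none past the threshold in any of these. Depth is unknown, so a value listed at 0 cannot be given a limit.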
